A study of Mus musculus with 38 samples.

Results

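The sites described here were the promoter-proximal SATB1 peaks of standard ChIP-seq in mouse thymocytes that carried no CTCF peak. A site was a peak of standard replicate 1 on chromosomes 1 to 19 or X that overlapped a peak of standard replicate 2 by at least 1 bp, overlapped no CTCF peak of thymocytes or skin, and had its summit within 1 kb of the annotated 5′ end of a protein-coding gene (GENCODE vM1 on mm9). Of the 47830 peaks of standard replicate 1 on these chromosomes, 21608 overlapped replicate 2, 16004 of those lacked CTCF, and 5808 of those lay at a gene 5′ end. The members were therefore chosen by the peak calls of both standard lists and both CTCF lists, and their fold enrichments in the standard lists are given as a description with no test.

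SATB1 is a nuclear protein of T cell precursors that folds chromatin around AT-rich DNA, including base unpairing regions, or BURs. BURs are named for their tendency to unwind and unpair under strain, and are rich in stretches with C or G on only 1 strand. CTCF is a zinc finger protein that marks many domain borders and some promoters. Standard ChIP-seq immunoprecipitates the soluble part of sonicated, crosslinked chromatin, and can recover a protein that touches DNA through another protein. Urea ChIP-seq first purifies crosslinked DNA in concentrated urea, which leaves only proteins crosslinked to the DNA itself. Gene promoters of active genes are open chromatin, often inside CpG islands, and are read by factors such as the ETS, SP/KLF, NRF1, NFY and YY1 families.

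All animals were C57BL/6 mice, wild-type for SATB1, and 11 peak lists were used. SATB1 was profiled in thymocytes by standard ChIP-seq (2 lists), by urea ChIP-seq in thymocytes, brain (frontal cortex per the study's methods) and skin (epidermal keratinocytes per the methods, 2 lists each), and CTCF by urea ChIP-seq in thymocytes and skin (1 list each), and the BUR reference map came from recombinant SATB1 bound in vitro to purified thymus DNA (1 list). The labels put the thymocyte and skin samples at postnatal day 13 and the brain samples at 5 and 6 weeks, although the methods give postnatal day 0.5 for skin and the titles of standard replicate 1 and of the thymocyte CTCF sample give 6 weeks. Standard replicate 1 used the antibody ab109122 after 15 s of sonication, and replicate 2 the antibody 1583D after 150 s, so antibody, sonication and possibly age cannot be told apart in any difference between them. The urea SATB1 lists were all made with 1583D, differing in antibody volume in thymocytes (4 and 2 µl), PCR cycles in brain (10 and 12) and sonication in skin (55 and 60 s). Within each cell type their titles share a code, apart from a last letter in thymocytes and skin. What the code stands for is not given, so these lists may not be independent and their SD may understate the spread. Standard replicate 1 held 48175 peaks and replicate 2 held 27147, and the urea SATB1 lists ranged from 10846 peaks in skin to 117963 in brain. No list from Satb1-/- thymocytes or from input chromatin was used here, so the dependence of these sites on SATB1 was not tested.

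Sequences of 12 sites are given as examples of the DNA under these summits, and are not a typical sample of the sites. Each is 150 bases around the summit of standard replicate 1, read from NCBIM37 (the assembly of mm9) in the 5′ to 3′ direction of the gene. They are a site of the 10 with the highest mean fold enrichment, 10 sites at T cell and V(D)J recombination genes, and a site that also lay in both thymocyte urea SATB1 lists, restricted to windows without an annotated exon. Capitals mark matches on either strand to the motifs counted later. These were the letters CCGGAAG for ETS factors, the letters TGTGGTT for RUNX, the letters GGGCGGG for SP/KLF, the letters GCATGCGC for NRF1, the letters CCAAT for NFY, the letters AAGATGGC for YY1, the letters TGACGTCA for the cyclic AMP response element (CRE), the letters TATAAA for TATA, the letters CTTTGAA for TCF/LEF, the letters AGATAAG for GATA and the letters TTGGGAA for IKZF factors. E-box 1 stands for the letters CAGCTG and E-box 2 for the letters CACGTG, and the CTCF core was searched in separate forms, the first with the letters AGGGGGC and the second with the letters AGGTGGC.
Rbm25: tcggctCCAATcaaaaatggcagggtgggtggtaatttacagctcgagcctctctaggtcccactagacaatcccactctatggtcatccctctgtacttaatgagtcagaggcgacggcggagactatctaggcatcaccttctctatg
Tcf3: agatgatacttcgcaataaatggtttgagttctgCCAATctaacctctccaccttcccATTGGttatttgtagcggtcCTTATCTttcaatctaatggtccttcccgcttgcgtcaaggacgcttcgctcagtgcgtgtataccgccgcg
Dclre1c: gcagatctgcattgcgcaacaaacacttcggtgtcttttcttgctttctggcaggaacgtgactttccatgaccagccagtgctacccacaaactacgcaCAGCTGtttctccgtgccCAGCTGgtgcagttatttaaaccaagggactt
Zap70: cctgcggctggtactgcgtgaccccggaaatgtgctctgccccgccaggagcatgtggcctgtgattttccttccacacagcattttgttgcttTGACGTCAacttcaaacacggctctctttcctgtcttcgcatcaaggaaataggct
Cd8b1: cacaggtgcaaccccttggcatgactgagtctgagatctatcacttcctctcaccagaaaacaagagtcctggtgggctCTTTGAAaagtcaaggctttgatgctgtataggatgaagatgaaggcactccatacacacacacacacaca
Atm: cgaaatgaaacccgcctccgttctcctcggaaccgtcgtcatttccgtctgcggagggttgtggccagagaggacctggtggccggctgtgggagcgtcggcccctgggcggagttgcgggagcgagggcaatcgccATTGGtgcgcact
Cbfb: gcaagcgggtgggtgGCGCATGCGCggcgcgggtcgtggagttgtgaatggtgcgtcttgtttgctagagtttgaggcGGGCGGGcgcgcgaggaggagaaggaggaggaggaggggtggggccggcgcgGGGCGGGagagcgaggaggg
Prkdc: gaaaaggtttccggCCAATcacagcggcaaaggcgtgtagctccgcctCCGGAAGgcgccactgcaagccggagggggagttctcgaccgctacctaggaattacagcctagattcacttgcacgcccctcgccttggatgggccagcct
Cxcr4: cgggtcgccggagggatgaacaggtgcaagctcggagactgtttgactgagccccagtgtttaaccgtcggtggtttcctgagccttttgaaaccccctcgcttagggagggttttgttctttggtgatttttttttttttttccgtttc
Bcl10: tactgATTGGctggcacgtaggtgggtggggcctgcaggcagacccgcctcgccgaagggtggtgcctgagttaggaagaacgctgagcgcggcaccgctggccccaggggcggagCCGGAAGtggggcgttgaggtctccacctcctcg
Hmgb2: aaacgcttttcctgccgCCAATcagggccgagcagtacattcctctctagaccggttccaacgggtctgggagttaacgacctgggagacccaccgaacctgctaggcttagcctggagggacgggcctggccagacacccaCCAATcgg
Nr6a1: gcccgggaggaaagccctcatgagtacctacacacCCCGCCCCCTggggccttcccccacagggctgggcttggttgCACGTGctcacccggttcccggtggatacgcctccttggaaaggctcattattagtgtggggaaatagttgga

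The window of Rbm25, a splicing factor gene, covered chr12:84972996-84973145 on the plus strand, with the summit at −113 bp from the 5′ end. It had 50.7% GC and 5 CpGs, and its only match was a CCAAT box of NFY. The window of Tcf3, which encodes the E proteins of lymphocyte development, covered chr10:79896680-79896829 on the minus strand and held 2 NFY matches and a GATA match. That of Zap70, the kinase that binds phosphorylated T cell receptor chains, covered chr1:36818531-36818680 on the plus strand and held a full CRE. The windows of Prkdc (chr16:15637541-15637690, plus strand), the DNA-dependent protein kinase, and Bcl10 (chr3:145587144-145587293, plus strand), an adaptor of NF-κB activation, each paired an ETS match with an NFY match.

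At the GC-rich end, the window of Cbfb (chr8:107694420-107694569, plus strand), the partner subunit of RUNX proteins, reached 71.3% GC with 18 CpGs, 2 SP/KLF matches and 2 NRF1 matches that overlap on opposite strands. Cd8b1 (chr6:71272523-71272672, plus strand), a chain of the CD8 coreceptor, had 0 CpGs and a TCF/LEF match. Dclre1c (chr2:3341156-3341305, plus strand), the Artemis nuclease, held 2 matches to E-box 1, and Atm (chr9:53344929-53345078, minus strand) and Hmgb2 (chr8:59990425-59990574, plus strand) held NFY matches. Cxcr4 (chr1:130487800-130487949, minus strand), a homing receptor, was intronic and matched none of the motifs. The window of Nr6a1 (chr2:38782194-38782343, minus strand), an orphan nuclear receptor gene, was intronic too and held matches to SP/KLF, E-box 2 and the first CTCF core.

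The sites sat close to the transcription start. The median distance between the summit and the gene 5′ end was 82 bp. Summits lay upstream at 57.4% of sites and downstream at 42.2%, with a median position of −20 bp, and 56.9% lay within 100 bp and 91.5% within 500 bp. By annotation, 2241 summits fell in an exon, 623 in an intron and 2944 outside both. Promoter sites with a CTCF peak (1892) had a similar profile, with a median position of −34 bp. Promoter peaks of standard replicate 1 without CTCF that had no counterpart in replicate 2 (3428) lay further downstream. Their median position was 50.5 bp and only 39.3% of summits were upstream. Those peaks were also shorter (median length 302 bp, against 653 bp for the sites in both lists) and lower (median fold enrichment 5.03).

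**Figure D1:**
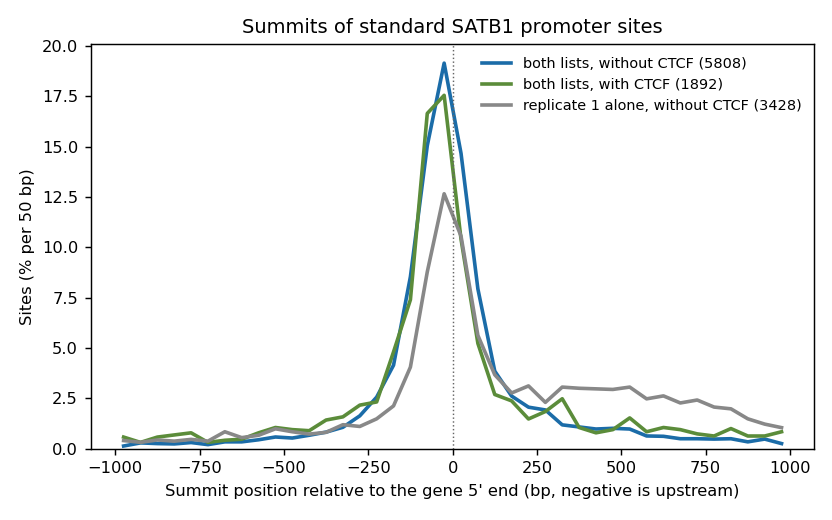
Position of standard SATB1 summits relative to the nearest gene 5′ end (x axis, bp) as the percentage of sites in each 50 bp (y axis), for sites in both lists without CTCF (blue), with CTCF (green), and in replicate 1 alone without CTCF (grey). Both kinds of site in both lists peaked just upstream of the 5′ end, and the replicate 1 peaks without a counterpart had a shoulder in the first kilobase of the gene.

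Fold enrichment, which is the peak caller's ratio of summit signal over nearby background, had a median of 9.10 in standard replicate 1 (range 2.68 to 30.5) and 6.46 in replicate 2 (2.80 to 23.4). The medians over all peaks of these lists were 6.35 and 6.13, but most of those peaks did not have to be called in both lists, as the sites did. Other replicate 1 peaks found in both lists had medians of 8.25 (away from gene 5′ ends, without CTCF) and 10.4 (at promoters, with CTCF). The ratio is not scaled between lists, and 13.9% of the sites were higher in replicate 2. Across the 5808 sites the fold enrichments of the lists had a Spearman correlation of 0.613, which describes these sites, all selected for a peak in both lists. The summits of the lists were a median of 59 bp apart and within 100 bp at 69.5% of the sites. Fold enrichment fell off with distance from the start. Sites within 100 bp of the 5′ end (3305) had medians of 9.77 and 6.66 in replicates 1 and 2, and sites between 500 bp and 1 kb away (492) had 7.08 and 5.77.

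Of the 10 strongest sites by the mean of both lists, the first was at Dcp1a, a subunit of the mRNA decapping complex (chr14:31292506-31293081), with fold enrichments of 29.8 in replicate 1 and 23.4 in replicate 2. It was followed by Rbm25 (chr12:84972803-84973449) with 30.5 and 21.7. The site in an intron of Hexim2, an inhibitor of the elongation factor P-TEFb, had 27.8 and 21.6 (chr11:102993958-102994589). The site at Krr1, a ribosome assembly factor, had 27.4 and 17.9. Snrpc, a U1 snRNP protein, had 24.9 and 15.3 (chr17:27976640-27977164). The others were at Rttn (26.4 and 16.5), a centriole protein, Mtf2 (24.8 and 17.9), a Polycomb partner that binds unmethylated CpG-rich DNA, Hibch (22.4 and 19.2), an enzyme of valine breakdown, Dus1l (24.2 and 16.7), a dihydrouridine synthase, and Cops4 (24.9 and 15.3), a subunit of the COP9 signalosome. None of these 10 sites overlapped a urea SATB1 peak or a BUR, and the nearest BUR was 1809 bp away, at Rttn. This was the usual state, since 99.5% of all sites were in no urea list and only 0.913% overlapped a BUR.

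**Figure D2:**
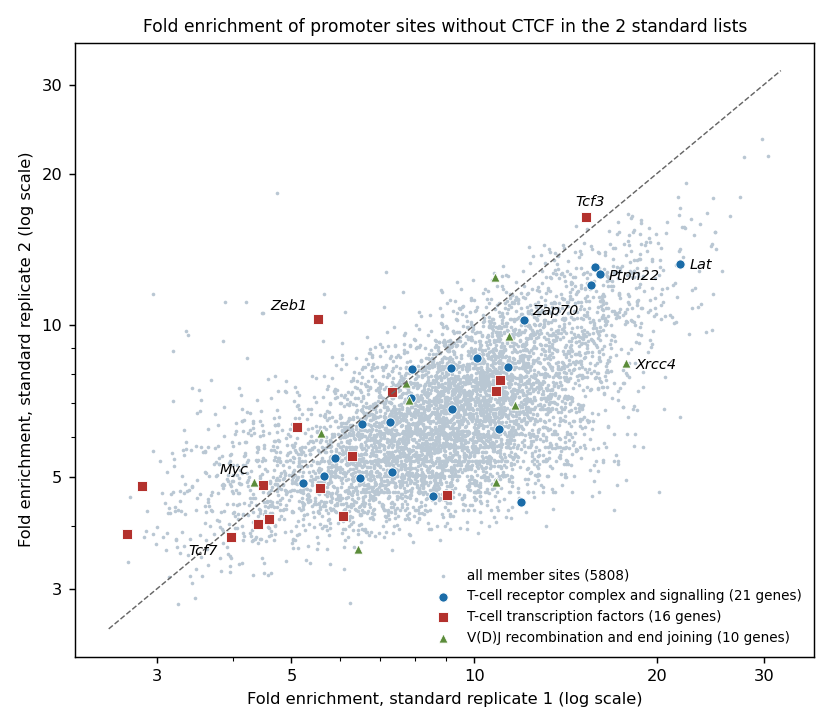
Fold enrichment of each site in standard replicate 1 (x axis) and replicate 2 (y axis), both on log scales, with genes of the T cell receptor (blue circles), T cell transcription factor (red squares) and V(D)J recombination (green triangles) lists marked. The dashed line marks equal values, most sites fall below it, and 13 of the 16 transcription factor genes lie left of the median of 9.10 in replicate 1.

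A gene was counted as having a site when a summit lay within 1 kb of its 5′ end. By that count 6484 of 22350 protein-coding genes had a site, 29.0% of all genes, and 219 of them had 2 or more. A further 1893 genes had a site that overlapped CTCF, 2743 a summit of replicate 1 alone, and 90 a summit of replicate 2 alone. Peaks of 1 replicate alone were counted here with or without CTCF. At 302 genes a site lay at another annotated transcript start, and 10838 genes had none of these. The share of genes with a site was 29.6% on the autosomes and 15.2% on the X chromosome. Without olfactory and vomeronasal receptor genes it was 31.7% and 15.4%. Each count below is read against the 29.0% of all genes. The lists were chosen with earlier results of these data known, so they describe the sites and are not tested.

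Genes of the T cell receptor (TCR) complex and its signalling pathway carried a site at 21 of 36 members (58.3%), with median fold enrichments of 9.15 in replicate 1 and 6.83 in replicate 2, close to the medians over all sites. Among receptor chains, Cd247, the ζ chain, had 9.15 and 8.22 at its 5′ end and a weaker second site (3.28 and 3.53) 828 bp into the gene. Cd3g had 10.1 and 8.62, and Cd3e had 5.89 and 5.45. Cd3d had a summit in replicate 1 alone. The strongest TCR site was at Lat, the membrane scaffold on which signalling complexes assemble, with 21.8 and 13.2 (chr7:133512779-133513358). High values were also found at the Tec family kinase gene Txk (15.6 and 12.0) and the phosphatase gene Ptpn22 (16.1 and 12.6).

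Zap70 had 12.1 and 10.2 and the adaptor gene Lcp2 had 11.0 and 6.23. Themis, required for positive selection, had 11.4 and 8.26. Bcl10 and Malt1, which act together between the receptor and NF-κB, had 9.19 and 6.83 and 11.9 and 4.47. Lower values were found at Cd5 (8.55 and 4.60), Sh2d2a (7.88 and 8.18), Nfatc3 (7.32 and 5.12), Vav1 (7.27 and 6.42), Ubash3a (6.53 and 6.37), Fyn (6.49 and 4.98), Ptprc (5.66 and 5.03) and Plcg1 (5.22 and 4.87). Only Sh2d2a was higher in replicate 2.

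The TCR pathway also had genes without a site. Lck, the kinase that starts TCR signalling, had a summit in replicate 1 alone, as did Cblb, Cd6, Fyb, Prkcq and Skap1. Cbl, Csk and Rasgrp1 had a site that overlapped CTCF. Cd28, Nfatc1 and Ptpn6 had a site at another transcript start, and Grap2 and Nfatc2 had none of these.

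T cell transcription factor genes carried a site at 16 of 34 annotated entries (47.1%), and most of these were low sites. The medians were 5.54 in replicate 1 and 4.81 in replicate 2, and 13 of the 16 were below the median over all sites in replicate 1 and 11 in replicate 2. The highest was Tcf3, with 15.3 and 16.4 and its summit at −363 bp from the 5′ end (chr10:79896316-79897110). Cbfb (11.0 and 7.79) and Tcf12, another E protein (10.9 and 7.39), were also above the median in both lists. Zeb1, a repressor, had 5.52 in replicate 1 and 10.3 in replicate 2, below the median in the first and above it in the second. The Runx genes had 5.11 and 6.30 at Runx1 and 6.29 and 5.49 at Runx3. Tcf7, which encodes TCF-1, had 3.98 and 3.81, and its summit was intronic, 565 bp from the 5′ end. The others were Bach2 (9.01 and 4.61), Sox4 (7.31 and 7.38), Myb (6.07 and 4.19), Fli1 (5.57 and 4.75), Id3 (4.59 and 4.12), Myc (4.49 and 4.82), Foxo1 (4.40 and 4.03), Stat5b (2.83 and 4.79) and Egr1 (2.68 and 3.86). Replicate 2 was higher at 7 of the 16, a larger share than the 13.9% over all sites.

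Among the transcription factor entries without a site, Bcl11b, Elf1, Gata3, Ikzf3, Patz1, Tox and Satb1 itself had one that overlapped CTCF. Elf4, Ets1, Foxp1, Id2, Lef1 and a second annotated entry of Sox4 had a summit in replicate 1 alone. Notch1 had a site at another transcript start. Foxp3, Ikzf1 and Zbtb7b had none of these. Gfi1 was not matched to the annotation.

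Among coreceptor, cytokine receptor and homing receptor genes of thymocytes, 11 of 21 had a site (52.4%), with medians of 6.53 and 4.68. The CD8 chains differed, with 10.6 and 11.1 at Cd8b1 and 4.51 and 3.38 at Cd8a. Cd4 had a summit in replicate 1 alone. Ly9 had 11.7 and 7.25, Cxcr4 had 9.27 and 7.47, and the common cytokine chain gene Il2rg had 8.06 and 4.08. Il7r, the receptor for the thymocyte survival cytokine IL-7, had 6.53 and 6.77. Cd69 (5.98 and 4.52), S1pr1 (5.32 and 4.63), Cd24a (4.59 and 4.68) and Thy1 (3.92 and 3.63) were lower. Cd27 and Cd44 had a summit in replicate 1 alone and Ccr9 in replicate 2 alone, Ccr7 and Tnfrsf9 had a site with CTCF, Cd2 had one at another transcript start, and Cd52, Cd53 and Slamf6 had none. Ptcra was not matched to the annotation.

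V(D)J recombination and end-joining genes carried a site at 10 of 16 members (62.5%), with medians of 9.32 and 7.02. Both subunits of the recombinase were among them. Rag1 had a site with its summit at −138 bp from the 5′ end (chr2:101489502-101490017) with 6.44 and 3.59, a site that was slightly nearer to an annotated 5′ end of B230118H07Rik (−107 bp). Rag2 had one at −54 bp (chr2:101464710-101465297) with 5.59 and 6.12 and a second, lower site 594 bp into the gene with 2.69 and 3.39. The highest of the list was Xrcc4, the scaffold of the ligase complex, with 17.8 and 8.40. It was followed by Dclre1c (10.8 and 12.5), Atm (11.4 and 9.54), Prkdc (11.7 and 6.95) and Lig4 (10.9 and 4.90). Hmgb2 had 7.72 and 7.70, Poll 7.81 and 7.10, and Hmgb1 4.34 and 4.90. Polm and Xrcc5 had a site with CTCF, Xrcc6 had one at another transcript start, Trp53bp1 had a summit in replicate 1 alone, and Dntt and Nhej1 had none of these.

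Apoptosis genes had a site at 10 of 20 members, with medians of 8.17 and 7.39, including Bcl2 (8.22 and 7.02) and Bcl2l11 (7.57 and 6.31), which encodes the BH3-only protein BIM. The SWI/SNF, NuRD and cohesin subunit genes had one at 21 of 32 (65.6%), with medians of 8.24 and 6.45. Examples were Smarca4, the BRG1 ATPase (8.28 and 6.63), Hdac1 (8.83 and 7.09) and the cohesin subunit gene Rad21 (9.87 and 10.1).

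Marker genes of other cell types were mostly without a site. None of the 10 B cell, 10 myeloid, 10 erythroid or 10 neuron markers had a site, nor did the 14 annotated entries of keratinocyte markers. Of these 54 entries, 6 had a summit in replicate 1 alone, Klf1 had one in replicate 2 alone, and Vpreb1 had a site with CTCF. Of 10 thymic epithelium markers, Ctsl (8.83 and 7.07) and Ly75 (6.99 and 5.23) had a site. RNA was not measured in these lists, so whether a gene was expressed is not known from them.

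Among the gene lists counted, several of basic cell functions had the largest shares of genes with a site. RNA polymerase subunit genes had a site at 21 of 28, with Polr3f at 13.6 and 11.4. Mitochondrial ribosomal protein genes had one at 57 of 77 (74.0%), with median fold enrichments of 11.2 and 7.09, and the highest were Mrpl44 (25.6 and 12.8), Mrpl32 (24.1 and 9.71) and Mrps27 (19.8 and 12.4). The site of Mrpl32 was shared with its neighbour Psma2, a proteasome gene. Splicing factor and snRNP genes had one at 23 of 32, with Snrpb2 at 25.0 and 14.1. Proteasome genes had 36 of 52, with Psmd12 at 20.7 and 15.2 and Psmd8 at 18.8 and 14.5. Vacuolar sorting protein genes had 22 of 31, with Vps33b at 21.8 and 17.1, and genes of TFIID subunits had 16 of 23, with Taf3 at 22.3 and 15.6.

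Shares from 68.4% down to 50.0% were found for genes of the anaphase promoting complex and MCM helicase (13 of 19, Anapc11 with 16.7 and 14.5), genes with Eif symbols, most of them translation initiation factors (36 of 57, Eif4b with 16.0 and 9.05), DEAD-box helicases (23 of 37, Ddx56 with 19.6 and 9.17), ATP synthase (11 of 18, Atp5g3 with 18.4 and 10.0), respiratory complex I (26 of 43, Ndufa10 with 16.9 and 12.0), Mediator (18 of 31, Med6 with 17.3 and 16.1) and ubiquitin-specific proteases (25 of 50, Usp12 with 16.5 and 12.5). Cytosolic ribosomal protein symbols had a site at 41 of 137 (29.9%), and 31 more had a site with CTCF; 59 had no standard summit or site.

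Replication-dependent histone genes were frequent but low. They had a site at 40 of 67 (59.7%), all 40 were below the median of all sites in replicate 1 and 36 were in replicate 2, and the medians were 4.99 and 4.38. Another 20 had a summit in replicate 1 alone. The highest mean was at Hist4h4, with 8.53 and 8.44. The large Zfp zinc finger family had a site at 145 of 371 (39.1%), with Zfp142 at 17.9 and 14.7.

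Other gene families were at or below the level of all genes. Solute carriers were at the level of all genes (99 of 355, 27.9%), with Slc33a1, an acetyl-CoA transporter, at 22.7 and 16.2. Gpr receptors had 13 of 97, potassium channels 8 of 96 and cytochromes P450 6 of 98, the last including Cyp51 (11.6 and 7.05), an enzyme of cholesterol synthesis. Keratins and keratin-associated proteins had 1 of 97, olfactory receptors 4 of 1113, protocadherins 0 of 36 and vomeronasal receptors 0 of 328.

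**Figure D3:**
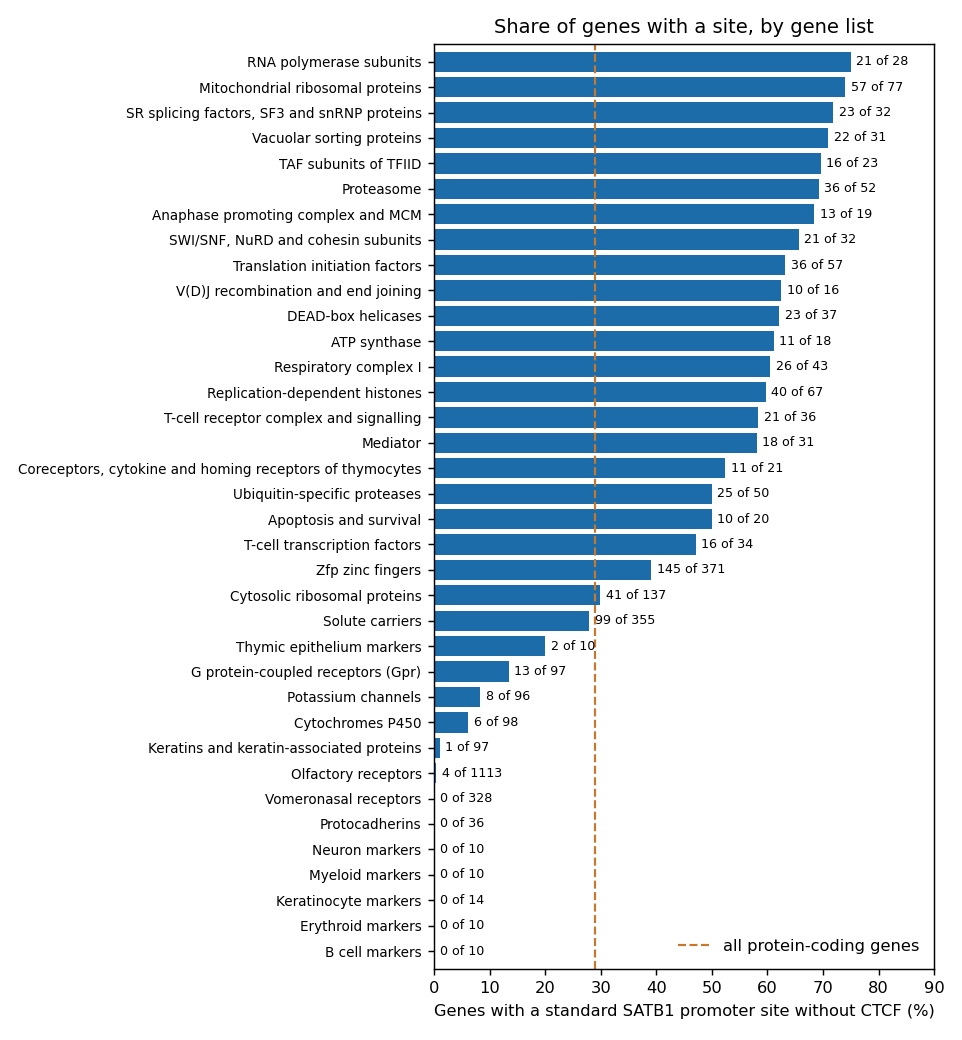
Percentage of genes with a standard SATB1 promoter site without CTCF (x axis) in each gene list (y axis), with counts beside the bars and a dashed line at the 29.0% of all protein-coding genes. RNA polymerase subunits are highest with 75%, the thymocyte lists lie between 47.1% and 62.5%, and the other lists of receptors and cell markers lie below the line, from 0% for B cell, myeloid, erythroid, keratinocyte and neuron markers to 13.4% for Gpr receptors and 20.0% for thymic epithelium markers.

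Divergent gene pairs, in which neighbouring genes start within 1 kb of each other and run apart, were common among the sites. Of genes with such a partner, 71.0% (1136) had a site, compared with 25.8% of genes without a partner. A site at a divergent pair counts for both genes, and 584 sites (10.1%) lay within 1 kb of both starts. Their median fold enrichments were 9.76 and 6.88, against 9.02 and 6.41 at the other sites.

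The sites were GC-rich. In the 300 bases around the summit the median GC content was 64.7% (interquartile range 59.0% to 70.0%), and the ratio of observed to expected CpG was 0.849. The standard SATB1 sites in both lists that lacked CTCF but lay away from gene 5′ ends (10196) had 49.7% GC and a CpG ratio of 0.260, and all gene 5′ ends had 58.0% and 0.597. Of these sites away from 5′ ends, 885 lay within 1 kb of another annotated transcript start. With a GC content of at least 50% and a CpG ratio of at least 0.6 taken as resembling a CpG island, 84.7% of the promoter sites, 9.13% of the sites away from 5′ ends and 48.1% of all gene 5′ ends qualified. At gene 5′ ends without a standard summit within 1 kb, 17.0% did. BURs hold stretches lacking C or G on a strand, and runs of at least 50 such bases, a length chosen here, were found at 1.24% of the sites, 11.5% of thymocyte urea SATB1 peaks and 30.5% of BURs, whose median GC contents were 31.0% and 28.3%.

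Motif content differed between promoter sites and the sites away from 5′ ends. At the promoter sites the SP/KLF motif was present in 52.5% of windows, NFY in 35.5%, ETS in 25.0%, YY1 in 6.70%, NRF1 in 5.46% and CRE in 4.27%. Over all gene 5′ ends these values were 32.6%, 35.7%, 11.3%, 3.79%, 3.11% and 2.24%, and of these motifs NFY had nearly the same value in both. In contrast, RUNX was present in 4.27% of promoter windows and 21.5% of windows away from 5′ ends, E-box 1 in 16.8% and 33.7%, TCF/LEF in 2.96% and 10.8%, and GATA in 1.03% and 4.76%. TATA was present in 3.67% of promoter sites and 10.8% of all gene 5′ ends. These motifs differ in GC content, and so do the windows; the part of composition in the differences was not tested.

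Gene 5′ ends were also compared by the state of their standard peaks. Windows of 300 bases centred on the 5′ end had median GC contents of 64.7% at genes with a site and 63.0% at genes with a summit in replicate 1 alone, but their CpG ratios were 0.857 and 0.737, and 84.2% and 65.7% resembled a CpG island. The ETS, SP/KLF, NRF1 and CRE letters each hold a CpG, so the part of CpG content in the following values was not tested. The ETS motif was present in 23.7% of the former and 10.5% of the latter, while SP/KLF was present in 50.8% and 47.4%. The latter were not cleared of CTCF, and 6.78% of them lay in a skin CTCF peak, against 0.401% of the former. Around the summits of promoter peaks of replicate 1 alone without CTCF, ETS was present in 11.6% of windows, against 25.0% at the promoter sites. Genes with a CTCF-overlapping site (66.0% GC) had ETS in 20.8% and SP/KLF in 50.0%. Within the promoter sites, ETS was present in 36.8% of the 1452 with the highest fold enrichment in replicate 1 and 14.2% of the 1452 with the lowest, with GC contents of 64.0% and 64.3% and CpG island-like shares of 88.7% and 76.4%. Sites with an ETS match had median fold enrichments of 10.4 and 7.05 in replicates 1 and 2, and sites without it 8.74 and 6.24. ETS matches lay a median of 41.5 bases from the summit and 57.7% of the nearest ones were within 50 bases. For SP/KLF this share was 54.2%, for CRE 53.6%, for NFY 49.2%, for NRF1 35.6% and for YY1 27.8%. A motif with several matches in a window is more likely to have a near one. No share for random positions was computed, so these values are not compared between motifs. The CTCF cores were less frequent than at promoter sites with CTCF, with AGGGGGC in 15.3% and 27.5% of windows and AGGTGGC in 6.87% and 11.9%.

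**Figure D4:**
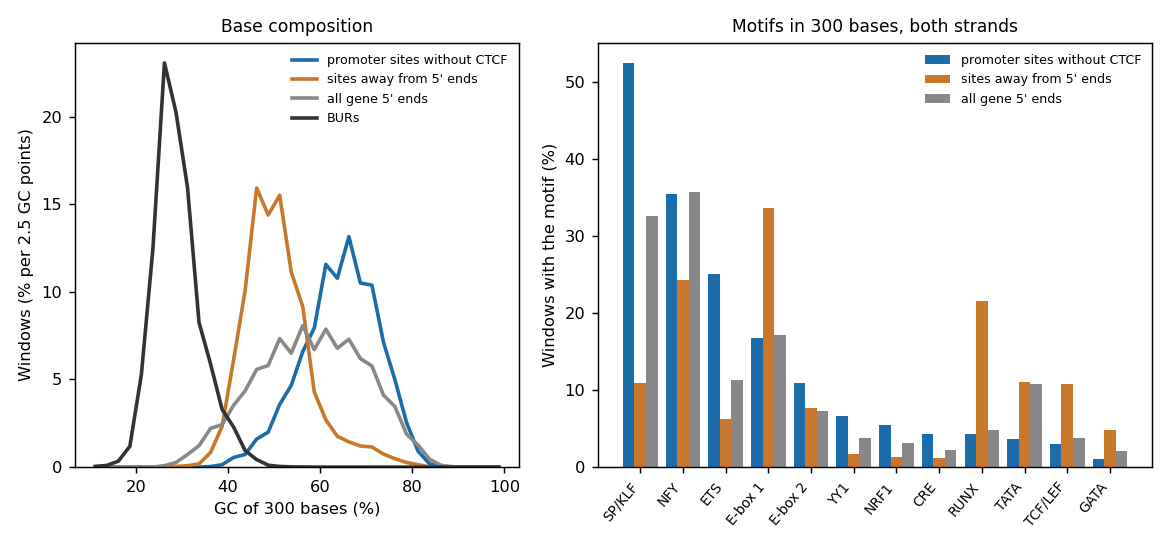
Left, GC content of 300-base windows (x axis) as a percentage of windows (y axis) for promoter sites without CTCF (blue), sites away from 5′ ends (orange), all gene 5′ ends (grey) and BURs (black); right, percentage of windows with each motif. Promoter sites centre on 64.7% GC and BURs on 28.3%, and ETS and SP/KLF bars are highest at promoter sites, while RUNX and E-box 1 bars are highest away from 5′ ends.

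The comparison with urea ChIP-seq asked whether SATB1 was also recovered at these promoters after urea purification. In thymocytes, 9 of 5808 sites (0.155%) overlapped a urea SATB1 peak of replicate 1 and 9 a peak of replicate 2, and 7 sites were in both. In brain, 24 sites (0.413%) overlapped replicate 1 and 16 (0.275%) replicate 2. In skin the counts were 2 (0.0344%) and 3 (0.0517%). In all, 5779 sites (99.5%) were in none of the 6 urea SATB1 lists, and 53 (0.913%) overlapped a BUR, with the summit itself on a BUR at 15. Urea peaks were rare at gene starts in general. Over all 22350 gene 5′ ends, taken as single positions, 0.148% and 0.143% lay in a thymocyte urea SATB1 peak (replicates 1 and 2), 0.394% and 0.345% in a brain peak and 0.107% and 0.0850% in a skin peak. The thymocyte and brain shares of the sites were near these values, but the sites are whole peaks, so the measures are unlike. Taken as single positions, 0 of the 6484 gene 5′ ends with a site lay in a thymocyte or skin urea peak of either replicate. In brain peaks the shares were 0.0308% and 0.0154%, below those over all gene 5′ ends. With the thymocyte CTCF list alone used to leave out CTCF sites, the mean skin overlap was 0.382%, and with the summit required to lie inside the other peak the mean thymocyte overlap was 0.0366%. These lists had no deposited depth, so a site absent from a urea list is one that was not called there.

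Sites away from 5′ ends were more often in urea lists although they were shorter (median length 431 bp, against 653 bp). The mean overlap was 0.642% ± 0.0208 with thymocyte urea lists (SD, n = 2 lists), 1.19% ± 0.111 with brain and 0.304% ± 0.0416 with skin, against 0.155% (9 sites in each list), 0.344% ± 0.0974 and 0.0430% ± 0.0122 for the promoter sites. For each cell type, both values of the sites away from 5′ ends were above both values of the promoter sites. BURs overlapped 2.56% of sites away from 5′ ends. Promoter peaks of replicate 1 alone without CTCF were nearer to the promoter sites, although shorter still (median length 302 bp). Their mean overlap was 0.204% ± 0.0413 in thymocytes, 0.335% ± 0.0206 in brain and 0.0729% ± 0.0206 in skin, and 1.05% overlapped a BUR. The low overlap was thus not particular to the sites in both lists. The promoter sites with CTCF had 1.00% ± 0.0747 in thymocytes, 1.00% ± 0.149 in brain and 1.90% ± 0.0747 in skin, also above the sites without CTCF in both lists of each cell type. The rule separated these groups by urea CTCF lists, and the skin overlap of the members depended on which CTCF lists were used. Nothing is therefore read from this difference.

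Urea peaks and BURs were less frequent at the summits than in the flanks. A BUR covered 0.258% of the summits of promoter sites, and on average 1.92% of positions from 1 to 3 kb away. Brain urea peaks covered 0.103% and 0.0517% of the summits in replicates 1 and 2, against 1.01% and 0.921% of the flanks. Thymocyte urea peaks covered 0.0344% and 0.0172%, against 0.377% and 0.345%. Around sites away from 5′ ends the dip was shallower, with BURs at 0.942% of summits and 2.14% of flanks. Brain urea peaks there covered 0.432% and 0.333% of summits, against 1.04% and 0.924% of flanks, and skin urea peaks covered more of these summits (0.245% and 0.206%) than of the flanks (0.138% in both lists).

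**Figure D5:**
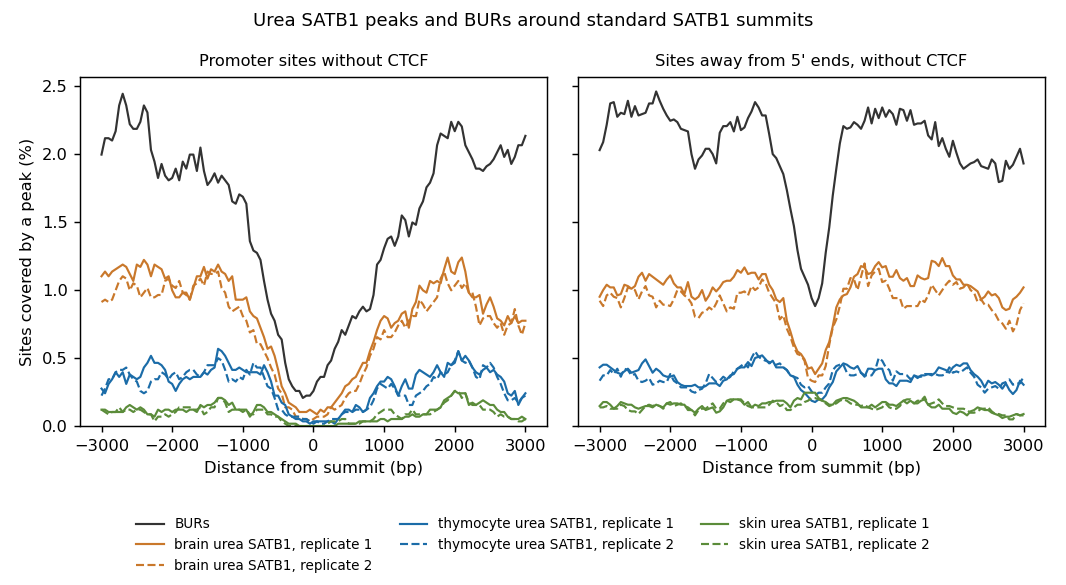
Percentage of sites at which each position (x axis, bp from the standard SATB1 summit in genome direction) lies inside a BUR or a urea SATB1 peak (y axis), for promoter sites (left) and sites away from gene 5′ ends (right). Each line is 1 list, and at promoter summits BUR coverage drops to 0.258% from 1.92% in the flanks, with the 6 urea lists also near 0.

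Urea peaks were found in the neighbourhood of a minority of the sites. A thymocyte urea SATB1 peak lay within 3 kb of 5.73% and 5.29% of the sites (replicates 1 and 2), a brain peak of 12.0% and 11.2%, a skin peak of 1.65% in both lists, and a BUR of 22.7%. Measured from gene 5′ ends, thymocyte urea peaks lay within 3 kb of 5.38% and 4.90% of the ends with a site and 7.90% and 7.30% of those without a standard summit. BURs lay within 3 kb of 20.1% and 33.4% of these. The brain lists were the longest and the skin lists the shortest. An exact permutation test of differences in any direction among the 3 cell types, over the 15 ways to label the 6 lists, gave p = 0.0667 both for overlap and for nearness within 3 kb (adjusted for 2 tests, 0.0667), which is the smallest p this design allows, so it cannot reach 0.05. With every list cut to the 10846 peaks of highest −log10 q, the share within 3 kb averaged 1.55% in thymocytes, 0.913% in brain and 1.64% in skin, so that the brain lists went from the highest to the lowest.

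The 7 sites in both thymocyte urea lists had standard fold enrichments from 6.13 to 9.97 in replicate 1 and from 4.31 (Adck1) to 12.8 (Suclg1) in replicate 2. The medians over all sites were 9.10 and 6.46. Acox3, a peroxisomal acyl-CoA oxidase gene (chr5:35924800-35925843), had 6.51 and 5.10 in the standard lists, 13.4 and 28.3 in the thymocyte urea lists, 8.44 and 12.2 in brain, and 14.9 and 21.0 in skin. It overlapped a BUR of fold enrichment 15.8 and was the only site in all 6 urea lists. The site of Nr6a1 had 6.13 and 10.6 in the standard lists and 15.5 and 18.7 in thymocyte urea, with the nearest BUR 1688 bp away. Fam173b, a site it shared with Cct5, overlapped a BUR of fold enrichment 10.8 and had 7.37 and 6.70 in thymocyte urea and 15.6 and 12.4 in brain.

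The other sites of this kind were at Suclg1 (7.23 and 9.07 in thymocyte urea), a subunit of succinyl-CoA ligase, Tubgcp5 (8.13 and 7.80), a γ-tubulin complex protein, Adck1 (9.15 and 5.72) and Zc3h7b (7.37 and 6.50). None of these 4 overlapped a BUR, and the nearest BUR was 741 bp away at Zc3h7b and 10039 bp away at Suclg1. All 7 also lay on a brain urea peak in at least 1 brain list. None of the 7 was at a gene of the 4 thymocyte lists. Those lists held only 58 of the 6484 genes with a site, so nothing is read from this. The nearest CTCF peak was only 123 bp away at Fam173b, 180 bp at Nr6a1 and 329 bp at Suclg1. At the others it was 9288 bp (Acox3) or more away. Over all sites, 8.54% had a CTCF peak within 1 kb.

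CTCF peaks, which the rule kept off the sites, lay near a minority of them. A CTCF peak of thymocytes or skin lay within 1 kb of 496 sites (8.54%) and within 3 kb of 1057 (18.2%), with a median gap of 12097 bp. Measured from gene 5′ ends, a skin CTCF peak lay within 3 kb of 14.4% of the ends with a site and 21.1% of all ends, and a thymocyte CTCF peak of 11.2% and 16.8%. The rule lowers the first value of each pair, so nothing is read from the difference. At the limits of the rule, the site of Tlr6 adjoined a CTCF peak, with 7.09 and 6.12 in the standard lists. Just outside, a peak at Rfwd3 shared 2 bp with a CTCF peak (10.9 and 5.21) and a peak at 1700012A16Rik shared 5 bp (6.75 and 5.34). For the distance limit, the summits at Lpin2 (6.28 and 4.36) and Cxcr4 lay 997 and 995 bp from the 5′ end, and the nearest ones left out, at Slfn9 (4.43 and 5.02) and Gm16181 (5.38 and 5.33), lay 1003 and 1004 bp away. For the overlap of the lists, the peaks at Dsn1 (4.23 and 6.13) and Slc25a38 (6.67 and 9.48) shared 2 bp with replicate 2. Among those left out, the replicate 1 peak at Samd1 (3.24) adjoined a replicate 2 peak and that at Zfp184 (4.00) was 1 bp from one. The median site shared 340 bp.

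One member stood apart in its statistics. The site at Gm10222 (chr1:24619072-24619657) had a −log10 q of 3147 in replicate 1 and 6.76 in replicate 2, with fold enrichments of only 3.47 and 2.88, while the next highest −log10 q in replicate 1 was 451, at Rbm25. All 586 bases of this site lay in exact matches of at least 50 bases to the mitochondrial genome of the same assembly, and no other member had such a match. Reads from mitochondrial DNA could not be told apart from reads of this site in these lists.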

How the data were processed

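Reads were mapped by the authors to NCBI37/mm9 with bowtie2 2.3.1, allowing 3 mismatches in the seed and keeping unique matches, and each sample's peaks came from MACS2 2.2.7 (q-value cutoff 0.01). Use of an input is not given in the sources used here. Each deposited list gives a display score (not used), the fold enrichment as a ratio to local background, the −log10 p-value and −log10 q-value computed by the authors' peak caller, and the summit position. The deposited lists hold no counts, so depth is unknown and no intervals from read counts are given. Precision is the spread between 2 lists.

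Python 3.11.15 with numpy 2.4.6 and scipy 1.17.1 gave the overlaps of at least 1 bp, distances, motifs and exact permutation tests, and pysam 0.24.0 read sequence from NCBIM37. The scripts were checked on simulated data. Where a site overlapped several peaks, the highest was used. The labels do not say whether replicates came from separate animals.

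The members, gene lists and tests were chosen with earlier results of these data known, and kinase and binding-protein symbols were removed from the cytosolic ribosomal list after its matches were seen. Sites were named by rule: the 10 with the highest mean fold enrichment, all genes of the 4 thymocyte lists, sites in both urea lists of thymocytes or skin, the 2 nearest each limit, and up to 3 per gene family. Some items that this rule names are not reported here, although the counts include them. Examples from the apoptosis and chromatin lists, thymic epithelium markers and Gm10222 were chosen after their values were seen. Sequences were limited to 12 windows without an exon and off chromosome 18. The Satb1-/-, input, Hi-C and 4C-seq samples and the second thymocyte CTCF sample were not used here. The alternatives were stricter q-values, other overlap rules, windows of 500 bp and 2 kb, 1 CTCF list, each replicate left out, a replicate block, equal list sizes and windows of 100 bases.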

Additional observations from a re-analysis of the deposited data

How the results depend on the processing

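The number of sites was 5808 as reported and ranged from 3926, with an overlap of 50% of the site, to 6263, with a window of 2 kb. From standard replicate 2 alone it was 6833, and from replicate 1 alone 9236. The share of genes was 27.6% with standard peaks of −log10 q of at least 5, 19.8% with 50% overlap, 27.5% with the summit inside the other peak, 26.7% and 30.8% with windows of 500 bp and 2 kb, 30.5% with the thymocyte CTCF list alone, and 30.8% to 40.4% without a standard replicate. A gene share counted as moved when it lay outside 28.4% to 29.6%, the exact binomial 95% interval of the reported share, and all of these did. That interval takes genes as independent and measures no spread between lists.

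The overlap with BURs fell to 0.153% with 50% overlap and 0.220% with the summit rule, and was 0.659% to 0.964% without a standard replicate. With these 2 rules the thymocyte urea overlap was 0.0382% and 0.0366%, the brain overlap 0.0637% and 0.0640%, and the skin overlap 0.0127% and 0.00915%. The thymocyte overlap was 0.146% with stricter standard peaks, 0.150% and 0.168% with windows of 500 bp and 2 kb, and 0.171% with the thymocyte CTCF list alone, where the skin overlap rose to 0.382%, since sites on skin CTCF peaks then count. Without a standard or a urea replicate, the thymocyte overlap ranged from 0.124% to 0.173%, the brain overlap from 0.212% to 0.413% and the skin overlap from 0.0293% to 0.0541%. Stricter urea and BUR lists (−log10 q of at least 5) gave the reported values.

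With lists of equal size the overlap was 0.0344% (2 sites) in each thymocyte list and 0.0172% (1 site) in each brain list. The order of the cell types changed, and the exact permutation p was 0.2 for overlap and 0.0667 for nearness. With so few sites, nothing is read from the order of the overlaps. With a replicate block, in which labels were exchanged only within a replicate number, the exact p was 0.167 for both, the smallest possible; the labels share only a number. The median GC content was 66.0% in windows of 100 bases and 64.0% to 65.0% under the other settings, and the ETS motif was present in 13.7% of windows of 100 bases. The tests of nearness, the counts of thymocyte genes (46 to 76, 58 as reported) and the ETS shares under these settings were added after seeing the data. Absence of a peak from a list depends on depth, which is unknown.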
